A study of Homo sapiens with 8 samples.

Results

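The 10 genes described here are CIITA and 9 genes of the MHC class II pathway: HLA-DRA, HLA-DRB1, HLA-DRB5, HLA-DQA1, HLA-DQB1, HLA-DPA1, HLA-DPB1, CD74 and HLA-DMA. They were taken by gene symbol from the 60106 genes of the count tables, and all 10 passed the filter on low counts. RNA was sequenced from pneumospheres, tumour cells grown as floating spheres, of 4 established non-small cell lung cancer lines. The labels call H23, H820 and H1975 adenocarcinoma and EBC1 squamous cell carcinoma. Of every line 1 library came from untreated spheres and 1 from spheres exposed to PD-L1s, which is soluble PD-L1 (an immune checkpoint ligand) made synthetically. The exposure lasted 15 min in serum-free medium with a dose of 25 µg/ml. No label describes a genotype change, a transgene or any other agent, and each line is a single cultured tumour.

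MHC class II molecules are pairs of an alpha and a beta chain that show peptides from the endosome to CD4+ T cells. HLA-DR, HLA-DQ and HLA-DP are the 3 classical pairs. CD74, the invariant chain, blocks the peptide groove during transport, and HLA-DM, of which HLA-DMA encodes the alpha chain, helps to load the peptide. CIITA does not bind DNA by itself. It docks on RFX, NF-Y and CREB-family proteins that sit on the X and Y boxes of class II promoters, and it is the master switch of these genes. Professional antigen-presenting cells express CIITA constantly, and many epithelial cells do so after interferon gamma.

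Class II genes are known for a shared promoter code, the X and Y boxes where CIITA acts, so the stretch that holds it is shown first. RefSeq promoter windows (GRCh38.p14, 250 bases before to 50 bases after each start) were matched by symbol for 8 of the 10 genes, with 9 windows in all. The stretches are written 5′ to 3′ on the strand of the gene. Capitals mark the letters AGCAAC, the core of the X1 box, and ATTGG, the core of the Y box, or CTGATTGG, the whole Y box. In the CD74 stretch the capitals mark CCAAT, which is ATTGG on the other strand. These are reference sequences and not the alleles of the 4 lines.
HLA-DRB1 (chr6:32589886-32589945, minus strand): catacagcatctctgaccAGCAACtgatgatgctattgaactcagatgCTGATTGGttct
HLA-DRB5 (chr6:32530369-32530428, minus strand): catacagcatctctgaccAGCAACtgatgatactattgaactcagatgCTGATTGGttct
HLA-DQB1 (chr6:32666737-32666796, minus strand): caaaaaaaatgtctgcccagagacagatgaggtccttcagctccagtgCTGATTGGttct
HLA-DQA1 (chr6:32637290-32637346, plus strand): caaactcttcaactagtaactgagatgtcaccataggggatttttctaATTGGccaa
HLA-DPB1 (chr6:33075843-33075899, plus strand): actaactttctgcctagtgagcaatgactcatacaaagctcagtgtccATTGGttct
HLA-DPA1 (chr6:33073697-33073756, minus strand): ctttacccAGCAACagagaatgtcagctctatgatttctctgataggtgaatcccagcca
HLA-DMA (chr6:32953168-32953227, minus strand): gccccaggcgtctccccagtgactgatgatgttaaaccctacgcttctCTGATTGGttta
CD74 (chr5:150412955-150413011, minus strand): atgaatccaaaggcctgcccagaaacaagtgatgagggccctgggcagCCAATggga

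The HLA-DRB1 and HLA-DRB5 stretches were identical at 59 of 60 bases. CTGATTGG, searched on both strands, was in 4 of the 9 member windows (44.4%) and in 3.97% of all 35116 RefSeq windows of this length. AGCAAC was in 4 of the 9 (44.4%), against 12.8% of all windows, and ATTGG in 7 of the 9 (77.8%), against 34.6%. CTGATTGG holds ATTGG, so these shares overlap. AGCAAC followed within 30 bases by ATTGG on the strand of the gene was in the windows of HLA-DRB1 and HLA-DRB5, and in 0.231% of all windows. A match of letters is a description of the reference and not evidence that a factor was bound.

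The files place CIITA on chromosome 16 (10971055 to 11030245, plus strand, GRCh37) and CD74 on chromosome 5 (149781200 to 149792492, minus strand). The 8 HLA genes lie within the class II region of chromosome 6, from HLA-DRA (32407619 to 32412823, plus strand) to HLA-DPB1 (33043703 to 33054978, plus strand). Counts are summed over the exons of a gene, UTRs included. CIITA shares reads on its own strand with RP11-876N24.3, which had at most 70 counts in a library, and HLA-DMA with XXbac-BPG181M17.5, which had at most 207. HLA-DPA1 and HLA-DPB1 overlap on opposite strands and were counted apart. HLA-DRB1, HLA-DRB5 and the pseudogene HLA-DRB6 are near-identical copies, so the split of reads among them is uncertain.

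Library totals ran from 5559870 to 27524854 counts. The ratio of treated to untreated depth was 4.67 in EBC1, 4.28 in H820, 0.936 in H1975 and 0.766 in H23. Levels within a gene are in CPM, the count of a gene relative to the TMM-scaled library total. Libraries of a line are the only replicates of a line, and they differ in treatment. With line and treatment fitted together, p-values of line comparisons measure how the change from untreated to treated library varies over the 4 lines. That spread may be technical and is not a spread between tumours. A difference was called at an adjusted p under 0.05 in edgeR's quasi-likelihood F test, with Benjamini-Hochberg adjustment over the 24185 genes tested. Counting intervals and floors cover counting error only.

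Markers were compared with the labels. Of 3 T-cell markers, none had more than 5 counts in a library. PTPRC, the pan-leukocyte antigen CD45, had at most 8 counts, and MS4A1, the B-cell antigen CD20, had 0 counts in all 8 libraries. The 5 B-cell markers summed to 0.384 to 2.61 CPM and the 9 myeloid and dendritic markers to 2.26 to 35.4 CPM. CSF1R, a macrophage growth factor receptor, reached 22.7 CPM in H1975, and ITGAX, the integrin CD11c, 13.7 CPM in H820. The 4 epithelial markers summed to 141 and 143 CPM in H23 and to between 1326 and 2805 CPM in the other lines. In EBC1, labelled squamous, the 4 squamous or basal markers summed to 6.73 and 6.14 CPM, nearly all of it SOX2 at 6.53 and 5.78 CPM. TP63 was at most 0.314 CPM in EBC1 and 87.2 and 86.7 CPM in H1975. KRT5 had at most 1 count in every library, so it separates no line.

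The first question was how the class II genes stood in each line. All 10 members differed among the lines (edgeR, F test over the 4 lines, adjusted p from 1.43e-16 for HLA-DQB1 to 0.000116 for HLA-DQA1), as did 86.3% of all genes tested, so the count by itself does not set the members apart. Fewer cells expressing a gene and less RNA per cell cannot be told apart in these bulk libraries. H23 was lowest for 8 of the 10 genes. For HLA-DQA1 it shared 0 counts with H820, and for HLA-DQB1 the lowest line was H1975. EBC1 was highest for CIITA, HLA-DRA, HLA-DRB1, HLA-DRB5, HLA-DQA1, HLA-DQB1 and CD74. By the mean of its 2 libraries H1975 was highest for HLA-DPA1, HLA-DPB1 and HLA-DMA, but it was not separated there from the line next in order (adjusted p = 0.186, 0.726 and 0.866, edgeR).

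**Figure D1:**
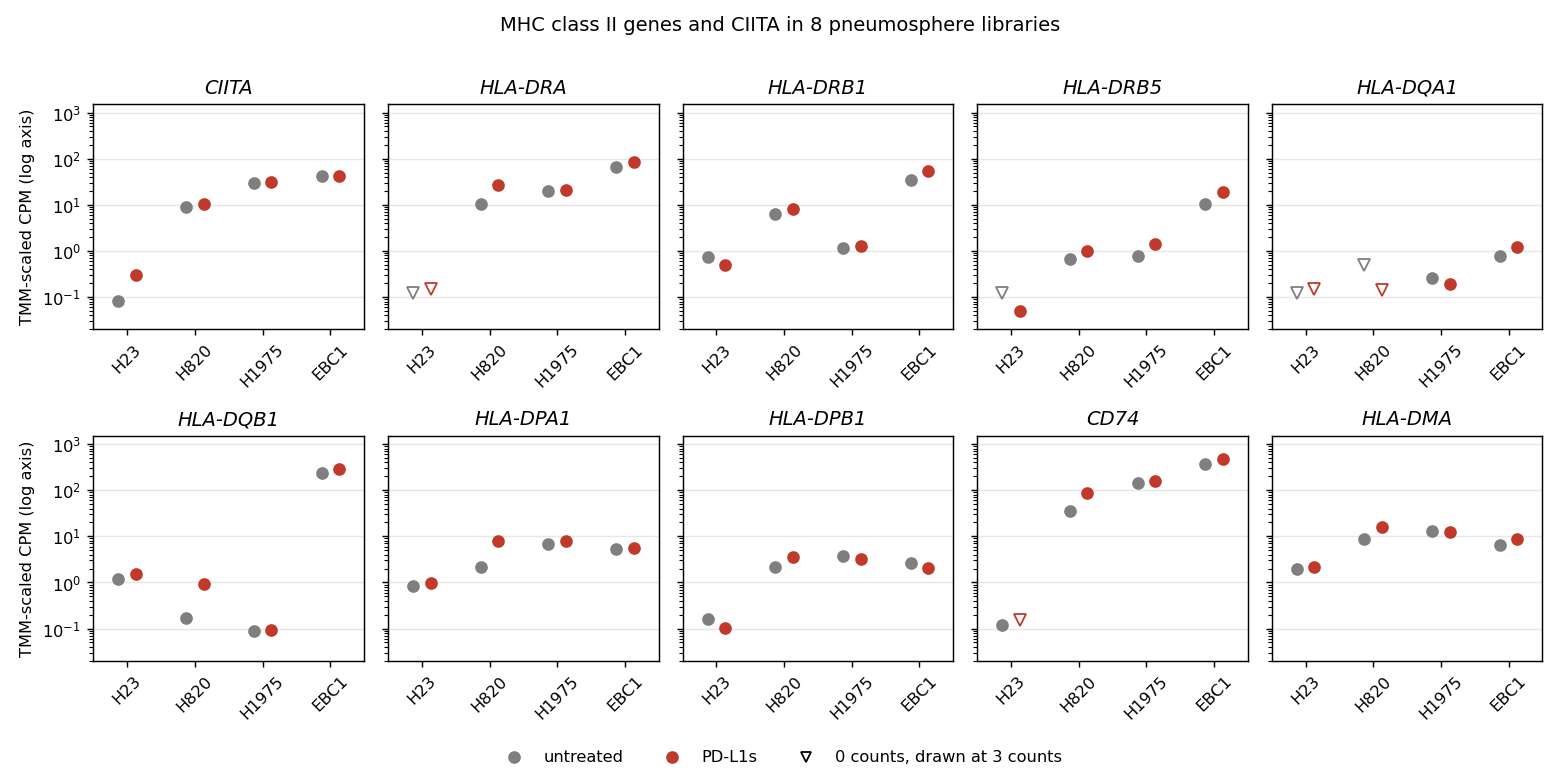
TMM-scaled CPM (log axis) of the 10 genes in each of the 8 libraries, by line, with untreated libraries in grey and PD-L1s libraries in red; open triangles mark 0 counts and are drawn at the level of 3 counts. HLA-DRA had 0 counts in both H23 libraries and 10.5 to 83.6 CPM elsewhere, and HLA-DQB1 exceeded 1.56 CPM only in EBC1.

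CIITA, the coactivator, had 2 and 6 counts in untreated and treated H23, or 0.0803 and 0.302 CPM. It had 8.81 and 10.6 CPM in H820, 30.3 and 32.0 CPM in H1975, and 41.1 and 41.7 CPM in EBC1. The 4 lines did not overlap. Over the summed libraries of a line, the level in EBC1 was 233-fold that of H23 (95% counting interval 118 to 540), that of H1975 174-fold (88.2 to 404), and that of H820 57.4-fold (28.7 to 134). H1975 exceeded H820 3.04-fold (2.67 to 3.47; adjusted p = 5.23e-07, edgeR). EBC1 and H1975 differed by log2 0.40 ± 0.169 (SE), which missed the threshold (adjusted p = 0.0528, edgeR); without single libraries the adjusted p ran from 0.0176 to 0.361, and without the untreated or the treated H820 library it was 0.0176 and 0.0182. It was also called with a minimum count of 50 (0.0325), protein-coding genes only (0.0461) and thinned libraries (0.0379).

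HLA-DRA encodes the nearly invariant alpha chain of HLA-DR. It had 0 counts in both H23 libraries, 10.5 and 26.6 CPM in untreated and treated H820, 19.6 and 20.5 CPM in H1975, and 66.1 and 83.6 CPM in EBC1. Against the floor of 3 counts over the pair of H23 libraries, the level was at least 1198-fold higher in EBC1, at least 346-fold higher in H820 and at least 299-fold higher in H1975. Such folds sum the 2 libraries of a line, so the deeper treated library weighs more in EBC1 and H820. By the mean of the 2 libraries, HLA-DRA was at 18.6 CPM in H820 and 20.0 CPM in H1975. EBC1 exceeded H1975 4.01-fold (95% counting interval 3.71 to 4.34; adjusted p = 1.17e-06, edgeR). H820 and H1975 were not separated (log2 -0.13 ± 0.225, SE; adjusted p = 0.658), and the 2 H820 libraries lay on either side of the H1975 pair. Without the treated H820 library, HLA-DRA was lower in H820 than in H1975 (log2 -0.85, adjusted p = 0.0033), and without the untreated one the difference was 0.30 in the other direction.

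CD74, the invariant chain, had the same order of lines as CIITA. It had 3 and 0 counts in H23, 35.1 and 85.8 CPM in H820, 147 and 156 CPM in H1975, and 378 and 466 CPM in EBC1. EBC1 exceeded H1975 2.97-fold (95% counting interval 2.88 to 3.06; adjusted p = 3.16e-05, edgeR), and H1975 exceeded H820 2.02-fold over the summed libraries (1.92 to 2.12). The fitted difference was log2 -1.39 ± 0.237 (SE) for H820 over H1975 (adjusted p = 7.00e-05, edgeR). It was -0.91 without the untreated and -2.04 without the treated H820 library, and called in each case. Against the 3 counts of H23, the ratio was 6703 in EBC1 with a counting interval of 2293 to 32510.

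Of the beta chains of HLA-DR, HLA-DRB1 had another order of lines, while the line means of HLA-DRB5 had that of CIITA. HLA-DRB1 had 0.723 and 0.503 CPM in H23, 1.14 and 1.27 CPM in H1975, 6.44 and 8.18 CPM in H820, and 35.2 and 53.2 CPM in EBC1. H820 was thus above H1975 for HLA-DRB1 (6.49-fold, 95% counting interval 4.79 to 8.95; adjusted p = 1.47e-07, edgeR), while it was below H1975 for CIITA. HLA-DRB5 had 0 and 1 count in H23, 0.677 and 1.02 CPM in H820, 0.786 and 1.42 CPM in H1975, and 10.6 and 18.7 CPM in EBC1. EBC1 exceeded H1975 15.7-fold for HLA-DRB5 (11.7 to 21.6), and H820 and H1975 overlapped (adjusted p = 0.423). HLA-DRB1 was called higher in H1975 than in H23 (1.92-fold, adjusted p = 0.0283, edgeR), at log2 -0.92 for H23 over H1975. The call was lost without the treated H23 library (log2 -0.49) and without the untreated H1975 library (log2 -0.82). It was also lost with library size scaling (adjusted p = 0.187, edgeR), DESeq2 (0.0579) and limma-voom (0.0624).

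The balance of the chains was read per length, in TPM (counts per exonic length, scaled to the same total in each library). In EBC1 HLA-DRA stood at 1.40 and 1.12 times the sum of HLA-DRB1 and HLA-DRB5 in the untreated and the treated library. The same ratio was 1.42 and 2.79 in H820 and 9.88 and 7.42 in H1975. H1975 thus had an alpha chain level near that of H820, at 23.8 and 24.3 TPM, with 2.41 and 3.27 TPM of the 2 beta chains. HLA-DRB5 made up 23.1% (Clopper-Pearson 95% interval 17.9 to 29.0) and 26.0% (23.8 to 28.2) of the counts of both beta genes in EBC1. It made up 9.52% (2.66 to 22.6) and 11.1% (7.10 to 16.3) in H820 and 40.9% (26.3 to 56.8) and 52.6% (39.0 to 66.0) in H1975. Reads were aligned to a single reference sequence of these polymorphic genes, and how far each line's alleles bear on the HLA-DR ratios was not tested.

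**Figure D2:**
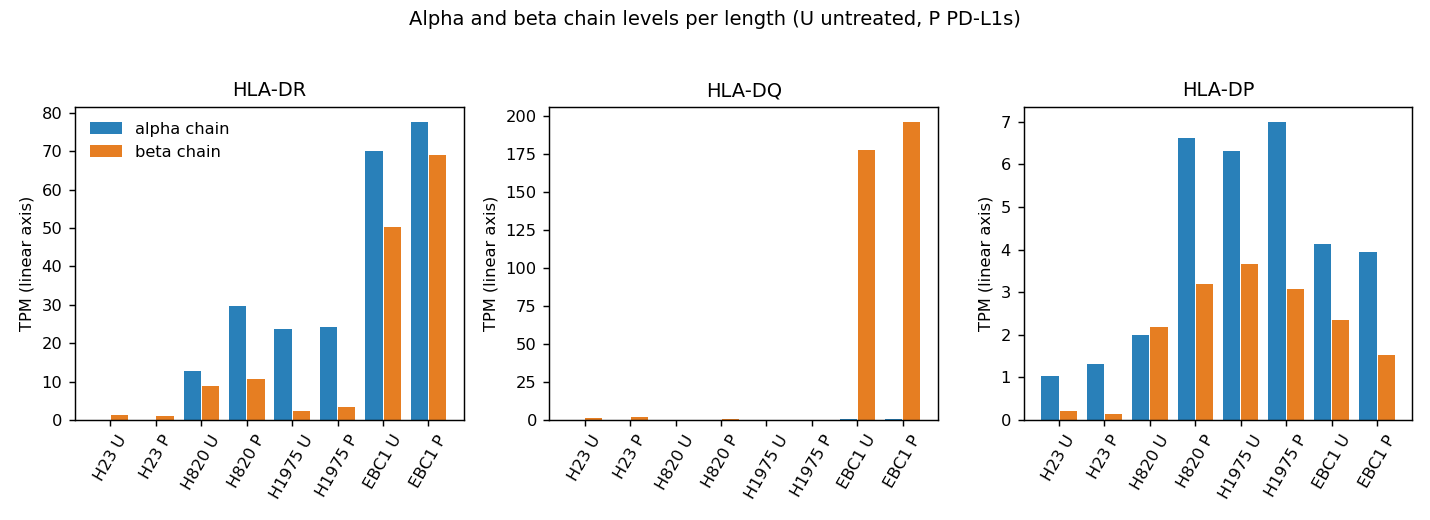
TPM (linear axis, a scale of its own in each panel) of the alpha chain (blue) and the beta chain (orange; HLA-DRB1 plus HLA-DRB5 for HLA-DR) in each library, U for untreated and P for PD-L1s. In EBC1 HLA-DQB1 stood at 177 and 196 TPM beside 0.594 and 0.819 TPM of HLA-DQA1.

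The HLA-DQ pair was the least balanced in EBC1, and HLA-DR in H1975. HLA-DQB1 had 233 and 294 CPM in untreated and treated EBC1 and at most 1.56 CPM in any other library. In H23 it had 1.21 and 1.56 CPM, in H820 0.169 and 0.929 CPM (1 and 20 counts), and in H1975 2 counts in each library. EBC1 exceeded H23 207-fold (95% counting interval 161 to 271), H820 368-fold (241 to 595) and H1975 3110-fold (1214 to 11420), with adjusted p-values of 1.63e-14, 1.02e-13 and 4.83e-14 in edgeR's test. Its partner HLA-DQA1 had 4 and 27 counts in EBC1, 6 and 4 counts in H1975, and 0 counts in the 4 libraries of H23 and H820. Per length, HLA-DQB1 stood at 299 and 239 times HLA-DQA1 in EBC1 and at 0.329 and 0.493 times in H1975, there on 2 to 6 counts per gene and library. As for HLA-DR, the part of the lines' own alleles in these ratios and in the 0 counts of HLA-DQA1 was not tested. HLA-DQB1 was also the one member that H23 had above another line in the test, by log2 3.82 over H1975 and by 0.99 over H820 (adjusted p = 0.0233); the latter call was lost without any single library of the 2 lines other than the treated H820 one, with adjusted p-values of 0.0569 to 0.0798. The call of HLA-DQB1 in H820 over H1975 rests on the treated H820 library (adjusted p = 0.000580 with it and 0.658 without it). The call of HLA-DQB1 in H23 over H820 was also lost with DESeq2 (adjusted p = 0.0522) and limma-voom (0.0554). The calls of HLA-DQA1 that involve H1975 rest on 10 counts and were lost without single libraries.

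The HLA-DP pair and HLA-DMA spread least among the 3 lines with CIITA. HLA-DPA1, the alpha chain of HLA-DP, had 0.843 and 0.955 CPM in H23, 5.19 and 5.65 CPM in EBC1, 2.20 and 7.90 CPM in H820, and 6.90 and 7.88 CPM in H1975. HLA-DPB1, its beta chain, had 0.161 and 0.101 CPM in H23, 2.69 and 2.02 CPM in EBC1, 2.20 and 3.48 CPM in H820, and 3.67 and 3.16 CPM in H1975. Neither gene was called between any 2 of EBC1, H820 and H1975, with adjusted p-values from 0.168 to 0.952. Without the treated H820 library, however, HLA-DPA1 was higher in EBC1 than in H820 (log2 1.22, adjusted p = 0.0286) and lower in H820 than in H1975 (log2 -1.68, adjusted p = 0.00105). All 3 lines exceeded H23 for HLA-DPA1, 6.23-fold in EBC1, 7.47-fold in H820 and 8.25-fold in H1975 over the summed libraries. By the mean of the 2 libraries, HLA-DPA1 was at 5.05 CPM in H820 and 5.42 CPM in EBC1. For H820 the fitted log2 difference from H23 was 2.55, and 1.36 without the treated H820 library (adjusted p = 0.0368).

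HLA-DMA had 1.97 and 2.11 CPM in H23, 6.53 and 8.56 CPM in EBC1, 8.81 and 15.7 CPM in H820, and 12.9 and 12.7 CPM in H1975. The H820 libraries lay on either side of the H1975 pair, and the 2 lines were not separated (adjusted p = 0.866). Per length it was the highest member in H23, at 3.65 and 4.38 TPM (49 and 42 counts). EBC1 was lower than H1975 (log2 -0.77 ± 0.228, SE; adjusted p = 0.00848) and than H820 (log2 -0.72 ± 0.234; adjusted p = 0.0145). Both calls were lost without single libraries, with adjusted p up to 0.161 against H1975 (without its untreated library) and up to 0.615 against H820 (without its treated library). EBC1, the line with the most HLA-DRA and CD74, had the lowest mean of HLA-DMA of these 3 lines.

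Counted by pair of lines, EBC1 was higher than H23 for all 10 members, where 28.3% of all genes were called higher. HLA-DQA1, 1 of the 10, passed the filter on low counts only through EBC1 (4 and 27 counts), where it is high. Its calls in the pairs with EBC1 are therefore no added support. With a minimum count of 50 it was not tested, and 9 members were called in EBC1 against H23. EBC1 was higher than H820 for 7 members and lower for HLA-DMA, against 25.6% and 30.1% of all genes. EBC1 was higher than H1975 for 6 members and lower for HLA-DMA, against 24.4% and 28.2%. H820 was higher than H23 for 8 members and lower for HLA-DQB1, against 29.1% and 29.8%. H820 was higher than H1975 for HLA-DRB1 and HLA-DQB1, where 27.2% of genes were called, and lower for CIITA, CD74 and HLA-DQA1, where 27.4% were. H23 was higher than H1975 for HLA-DQB1, with a background of 31.8%, and lower for the other 9 members, with a background of 30.8%. Median log2 differences of the members were 7.40 for EBC1 over H23, 3.98 for H820 over H23 and -4.84 for H23 over H1975, beside -0.12, -0.06 and 0.04 over all genes.

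Across the 8 libraries, log2 CPM of CIITA had a Pearson r of 0.982 with CD74, 0.975 with HLA-DRA, 0.934 with HLA-DPB1 and 0.916 with HLA-DPA1, and of 0.642 with HLA-DRB1 and 0.260 with HLA-DQB1. The 8 points are 2 libraries of each of 4 lines that differ at most genes, and in this set 1.42% of the 12639 genes compared had a higher r with HLA-DRA than CIITA had. The 8 genes most like HLA-DRA by r were ANKRD22, FAM107B, B4GALT1, CD47, PLAU, PLOD2, ARHGAP24 and BAZ1A (r of 0.996 to 0.997). Those most like CIITA were KPNA7, OSBPL7, NRP1, GBP1, UCHL3, MPZL2, PDP1 and CLIP4 (r of 0.993 to 0.9985). GBP1, an interferon-inducible GTPase, had 0.0803 and 0.101 CPM in H23 and 42.5 and 48.2 CPM in EBC1. By Spearman's rho, 1 of the 8 genes stayed on each list.

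Genes above CIITA and around it were taken from lists fixed for this pathway. Of 7 proteins of the class II promoter complex, 6 differed among the lines and none was called for the treatment. Over all genes tested 86.3% differed among the lines, so such a count sets neither this list nor those below apart. RFX5, the DNA-binding subunit of RFX, was highest in H23, the line with 0 counts of HLA-DRA, at 116 and 112 CPM, with 29.8 to 47.7 CPM in the other lines. H23 exceeded H1975 by log2 1.26 ± 0.142 (SE; adjusted p = 4.16e-07, edgeR) and EBC1 was below H23 by log2 -1.89 ± 0.150. RFXANK, another subunit, had 20.9 and 17.1 CPM in H23, 18.5 and 17.5 CPM in H1975, 7.79 and 11.2 CPM in H820, and 6.92 and 5.74 CPM in EBC1; H23 and H1975 were not separated (adjusted p = 0.725). RFXAP, the third, had 2.97 to 5.74 CPM in the 8 libraries with no call among lines (adjusted p = 0.197). NFYB and NFYC, subunits of the Y box factor NF-Y, ranged from 14.9 to 37.1 CPM and from 24.8 to 52.5 CPM.

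**Figure D3:**
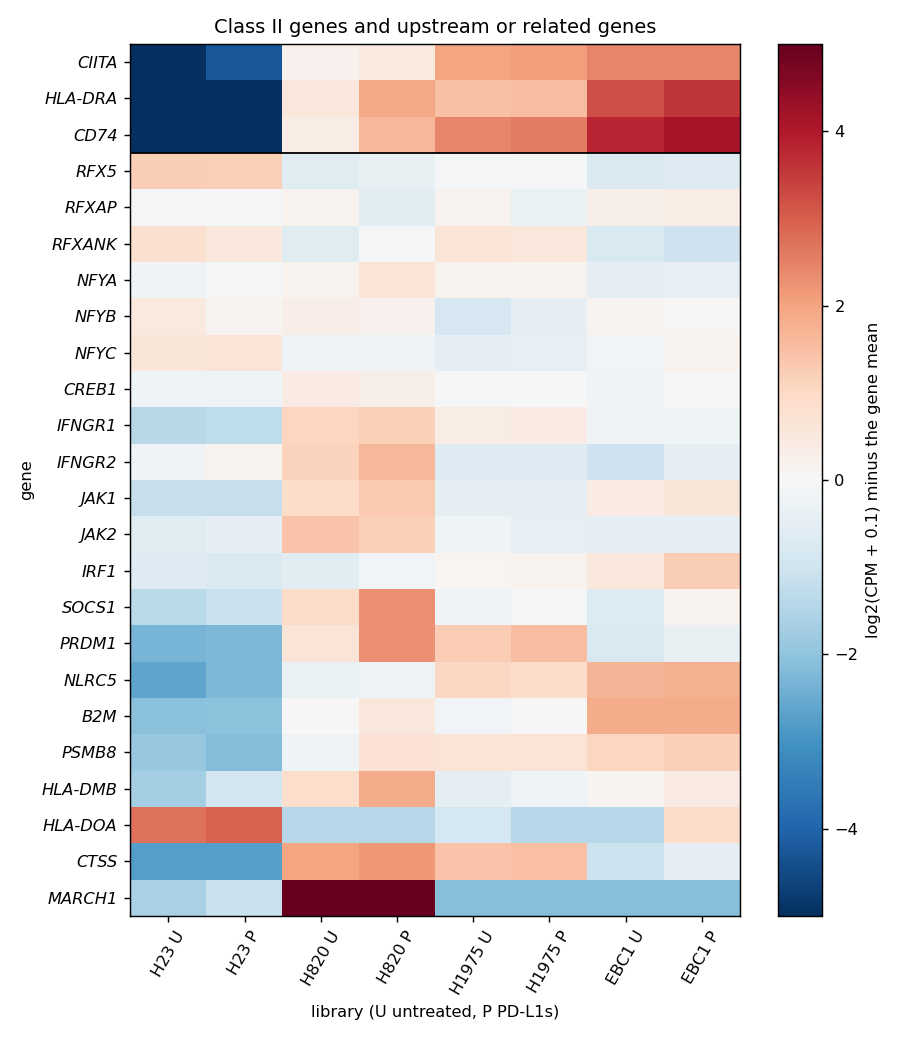
Heat map of log2(CPM + 0.1) minus the mean of the gene over the 8 libraries, for 3 members (above the line) and 21 related genes, with colours limited at 5 log2 units and libraries marked U for untreated and P for PD-L1s. CIITA, HLA-DRA, CD74 and NLRC5 are lowest in H23, RFX5 and HLA-DOA are highest there, and MARCH1 is high in H820.

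Of 12 genes on the path from interferon gamma to CIITA, 11 were tested and 11 differed among the lines, beside 86.3% of all genes. None was called for the treatment. IFNG itself had 0 counts in every library. IFNGR1, the ligand-binding receptor chain, had 17.2 and 18.6 CPM in H23, 38.6 and 38.5 CPM in EBC1, 57.8 and 59.8 CPM in H1975 and 93.5 and 103 CPM in H820. IRF1, an interferon-induced factor that acts on the CIITA promoter, was highest in EBC1 at 56.5 and 91.1 CPM. The kinase JAK2 was highest in H820, at 26.4 and 22.8 CPM beside 6.50 to 8.43 CPM elsewhere, as was SOCS1, an inhibitor of JAK signalling, at 15.9 and 39.9 CPM. IFNGR2 and JAK1 were also highest in H820, at 179 and 256 CPM and at 378 and 494 CPM.

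Of 11 coactivators and repressors at CIITA or its targets, 10 were tested and 10 differed among the lines. PRDM1, the repressor BLIMP1, had 2.33 and 2.46 CPM in H23, the line with least CIITA, and 19.1 and 59.8 CPM in H820. EZH2, a histone methyltransferase linked to CIITA silencing, ranged from 25.1 CPM in untreated H820 to 65.1 CPM in untreated EBC1. SIN3A, a corepressor scaffold, was highest in H23 at 213 and 210 CPM. CARM1 and KAT2B, histone-modifying coactivators, were highest in H1975, at 94.4 and 91.2 CPM and at 19.7 and 19.9 CPM.

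Of the 9 class II accessory symbols, 8 were matched and 4 tested, all of which differed among the lines. HLA-DMB, the beta chain of HLA-DM, had 1.004 and 1.81 CPM in H23, 3.84 and 4.75 CPM in EBC1, 6.61 and 12.9 CPM in H820, and 2.53 and 2.97 CPM in H1975. HLA-DOA, the alpha chain of the HLA-DM inhibitor HLA-DO, was highest in H23, at 1.65 and 1.96 CPM, with 0 and 0.404 CPM in EBC1, 0.0437 and 0 CPM in H1975 and 0 counts in both H820 libraries. H23 exceeded H1975 for it by log2 5.93 ± 0.883 (SE; adjusted p = 1.61e-05, edgeR), on 41 counts or fewer per library. HLA-DOA passed the filter on low counts only through H23, where it is high, so this call is no added support. HLA-DOB, its partner, was highest in H820 at 1.52 and 2.18 CPM. The pseudogene HLA-DRB6 had 5.19 and 5.69 CPM in EBC1 and at most 1.44 CPM in other lines.

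Of 12 genes of endosomal processing, 11 differed among the lines. CTSS, cathepsin S, which trims CD74 in antigen-presenting cells, had 1.97 and 1.96 CPM in H23, 6.53 and 9.91 CPM in EBC1, 37.1 and 39.8 CPM in H1975, and 55.0 and 63.5 CPM in H820. CTSL and CTSD, cathepsins L and D, were highest in H1975, at 249 and 287 CPM and at 1569 and 1486 CPM. MARCH1, a ubiquitin ligase that removes class II molecules from the surface, had 19.0 and 22.5 CPM in H820 and at most 0.101 CPM in every other library.

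All 11 genes of the class I group differed among the lines. NLRC5, the class I counterpart of CIITA, had 1.93 and 2.56 CPM in H23, 9.82 and 10.7 CPM in H820, 25.9 and 23.7 CPM in H1975, and 40.7 and 43.5 CPM in EBC1, the same order of lines as CIITA. B2M, the class I light chain, had 148 and 153 CPM in H23 and 2279 and 2312 CPM in EBC1. PSMB8, an immunoproteasome subunit, had 6.50 and 5.28 CPM in H23 and 20.7 to 56.1 CPM elsewhere. Of 9 costimulation and adhesion genes, all 7 that were tested differed among the lines. CD80 and CD86, the costimulators of professional antigen-presenting cells, had at most 4 counts in a library. ICAM1, an adhesion ligand of T cells, had 22.4 CPM in both H23 libraries and 88.2 to 332 CPM in the others, and ICOSLG, a costimulatory ligand, was highest in H820 at 90.4 and 73.0 CPM. TNFSF9, another costimulatory ligand, was highest in H1975 at 19.4 and 15.4 CPM, and CD83 in H23 at 9.76 and 10.3 CPM. Among 5 ligands and partners of CD74, 4 were tested and all 4 differed. CD44, its signalling partner, had 8.47 and 8.90 CPM in H23 and 178 to 649 CPM elsewhere. Its ligand MIF had 149 to 764 CPM in the 8 libraries, and the related ligand DDT 6.27 to 19.8 CPM. CXCR4, a further receptor for MIF, was highest in EBC1 at 5.38 and 8.02 CPM.

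The second comparison asked whether the class II genes differ 15 min after PD-L1s. No member was called over the 4 line pairs in edgeR's test (adjusted p = 0.9995 for each), where 0.0372% of all genes were. The estimate was above 0 for 9 of the 10 members, and 4 of them had an unadjusted p under 0.05, as did 3.61% of all genes. These were HLA-DRB5 (log2 0.82 ± 0.274, SE, unadjusted p = 0.00779), HLA-DRA (0.51 ± 0.181, 0.0125), CD74 (0.50 ± 0.189, 0.0167) and HLA-DQB1 (0.41 ± 0.182, 0.0369). Without single lines the estimate of HLA-DRA ran from 0.2 to 0.73 and that of CD74 from 0.17 to 0.68. HLA-DRB5 ran from 0.79 to 0.84 and HLA-DQB1 from 0.33 to 0.65. CIITA stood at 0.14 ± 0.145 (unadjusted p = 0.341). The median over the members was 0.38, beside 0.04 over all genes tested. None of the pathway lists had a gene called for the treatment.

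Within a line there is 1 library per condition, so ratios have no replicate check. A ratio was read as large where it passed 2-fold (on the log2 scale, with a prior count of 5) and the gene reached 50 counts in either library. In H820, 3 of the 7 members at that depth passed it, all upward, beside 4.23% of 14883 genes. HLA-DRA went from 62 to 573 counts and from 10.5 to 26.6 CPM, a ratio of 2.54 (95% counting interval 1.95 to 3.35). CD74 went from 207 to 1846 counts and from 35.1 to 85.8 CPM, a ratio of 2.45 (2.12 to 2.84). HLA-DPA1 went from 13 to 170 counts and from 2.20 to 7.90 CPM, a ratio of 3.59 (2.04 to 6.88). HLA-DMA had a ratio of 1.78 (1.32 to 2.43) and CIITA of 1.21 (0.890 to 1.67), from 8.81 to 10.6 CPM. HLA-DRB1, at 1.27 (0.891 to 1.86), did not follow its alpha chain. The median log2 ratio of the 7 members was 0.81, beside 0.14 over all genes of the H820 pair.

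**Figure D4:**
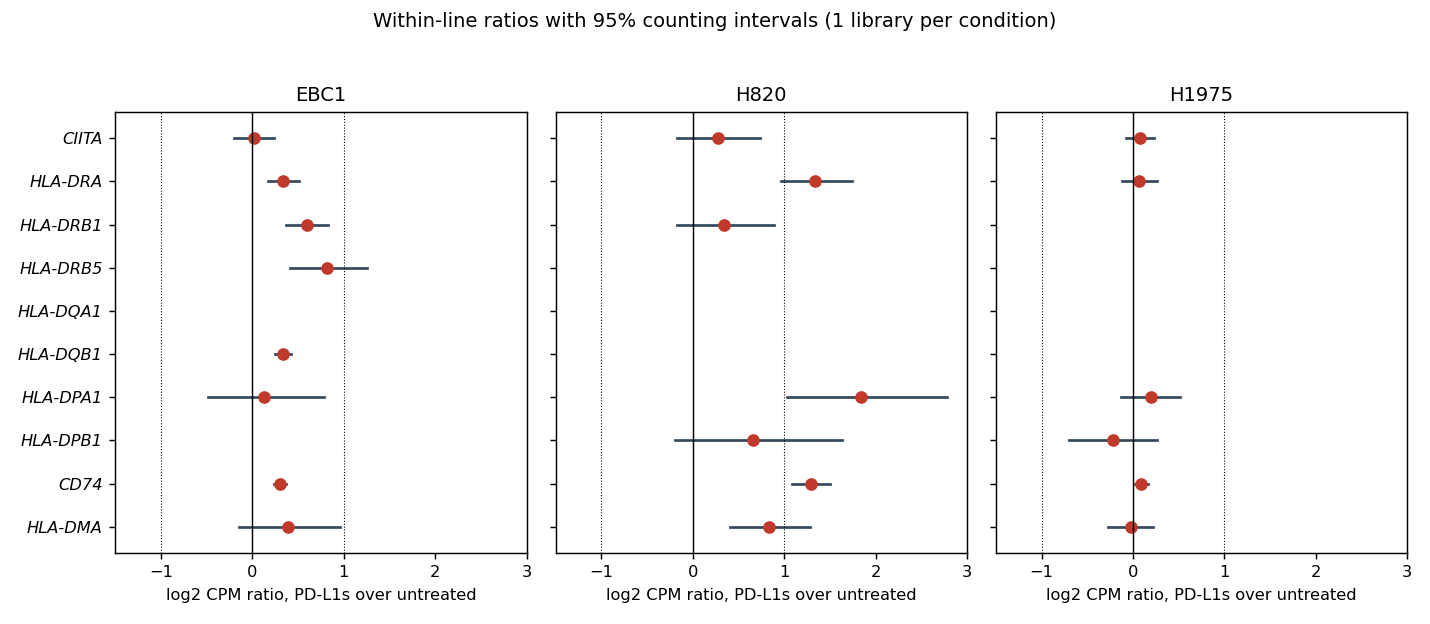
Log2 CPM ratio of the PD-L1s library over the untreated library in EBC1, H820 and H1975 (points) with 95% counting intervals (lines), for members with at least 50 counts in a library; dotted lines mark 2-fold. In H820 HLA-DRA, HLA-DPA1 and CD74 lie beyond 2-fold, and in EBC1 and H1975 no member does; H23 is not drawn because no member reached 50 counts there.

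In EBC1 none of 8 members passed 2-fold, where 1.33% of genes rose past it. All 8 ratios were above 1, from 1.01 for CIITA (95% counting interval 0.872 to 1.18) to 1.77 for HLA-DRB5 (1.33 to 2.38), with a median log2 of 0.34 beside 0.13 over all genes. HLA-DPB1 and HLA-DQA1 did not reach 50 counts there, and their ratios were 0.75 (0.404 to 1.48) and 1.575 (0.549 to 6.19). In H1975 none of 6 members passed 2-fold, where 0.133% of genes rose past it, and the ratios of HLA-DRA and CD74 were 1.05 (0.917 to 1.20) and 1.06 (1.01 to 1.12). In H23 no member reached 50 counts.

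The difference between the response of H820 and that of the other 3 lines was tested as an interaction, in which H820 gave 1 pair. HLA-DRA (log2 1.14 ± 0.281, SE, adjusted p = 0.0196, edgeR) and CD74 (1.11 ± 0.225, adjusted p = 0.00283) were called, 2 of 10 members, beside 2.99% of all genes. The single H820 pair is fitted exactly in this test, so its p-values rest on the spread among the other 3 lines and assume that H820 varies like them. HLA-DPA1 missed the threshold at 1.67 ± 0.480 (adjusted p = 0.0517), and CIITA stood at 0.19 ± 0.314 (adjusted p = 0.876). The call of HLA-DRA was lost without the H23 pair (adjusted p = 0.0655) or the H1975 pair (0.243), and that of CD74 without the H1975 pair (0.0579). With H23, EBC1 or H1975 as the line set apart, no member was called, and 0.0207%, 0.0124% and 0.0165% of all genes were. At an unadjusted p under 0.05 there were 1, 0 and 0 members, beside 1.91%, 4.52% and 1.45% of all genes. With H820 set apart there were 4 members at that level, beside 14.2% of all genes. For HLA-DRA, a gene with 0 counts in H23, the H23 pair carries no information on the response. For CD74, with 3 and 0 counts in H23, that pair carries little.

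Other values of the H820 pair differed as well. Its treated library was 4.28 times as deep, and with EBC1 and H820 thinned to equal totals the log2 difference in response was 1.08 for HLA-DRA (adjusted p = 0.0315) and 1.10 for CD74 (adjusted p = 0.00132). Summed epithelial markers went from 1326 to 2168 CPM in H820 and summed alveolar type 2 markers from 118 to 153 CPM, of which SLC34A2, a phosphate transporter of these cells, went from 6.10 to 27.6 CPM, the lung transcription factor NKX2-1 from 35.6 to 54.0, LAMP3 from 17.3 to 24.2 and the lipid transporter ABCA3 from 55.5 to 41.7. SFTPA1 and SFTPC were at 0 in both H820 libraries. PTPRC and MS4A1 had 0 counts in both H820 libraries, and myeloid and dendritic markers summed to 18.6 CPM in the untreated and 16.3 CPM in the treated one. The part of depth and of epithelial marker level in the H820 result was not tested beyond the thinned values.

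Among the related genes, PRDM1 (log2 1.38 ± 0.257, SE, adjusted p = 0.00101), CTSV, cathepsin V (1.03 ± 0.255, 0.0188), PSMB8 (0.96 ± 0.243, 0.0223) and IRF2, an interferon regulatory factor (0.84 ± 0.214, 0.023), were also called in the interaction of H820 in edgeR's test. Each was the 1 called gene of its list, of 10, 12, 11 and 11 tested, beside 2.99% of all genes. SLC34A2 was called too, as the 1 of 6 alveolar type 2 markers tested (2.49 ± 0.501, adjusted p = 0.00252). SOCS1 (1.0 ± 0.301, adjusted p = 0.0682) and HLA-DMB (0.54 ± 0.416, 0.624) were not. None of the 7 promoter complex genes was called, with a median of -0.06, and RFX5 stood at 0.21 ± 0.207.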

How the data were processed

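The authors deposited unnormalised counts for each gene and library. STAR 2.7.3a (alignment, GRCh37/hg19) and featureCounts (Subread 2.0.0) are named per the submitters' processing notes. Primary read pairs were counted over exons of the GENCODE basic annotation in the reverse-stranded setting, per the file headers, and a pair overlapping several genes on a strand was counted for each. The gene length in the authors' files served for TPM only.

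Counts were fitted with edgeR 4.0.16 (R 4.3.3; TMM; expression filter at a minimum count of 10, line as group; 24185 genes) with line plus treatment as terms, since the labels name the line of each library. Deviations of the 2 libraries of a line from the group means correlated at 0.875 to 0.958. Alternatives included DESeq2 1.42.0 and limma 3.58.1 (voom). Likeness used log2 CPM with a prior count of 2. The 10 members, the lists and the rule for naming genes (all members, up to 4 genes per list by smallest p among lines, a set of pathway genes, 8 most like HLA-DRA and CIITA) were chosen with earlier results of these data known. HLA-DQB1-AS1 was not matched, and some genes the rule names are not reported here. Scripts were tested on simulated counts. All tests were two-sided.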

Additional observations from a re-analysis of the deposited data

Results flagged for a closer look

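Dixon's test for a far value in a group of 4 was applied to the CPM of each member over the 4 untreated and over the 4 treated libraries, and to the 4 within-line log2 ratios. It marked 8 of 30 such groups (26.7%). Chance marks about 1 in 20 groups of normal values, but of all genes tested the same rule marked 15.6% in the untreated and 16.2% in the treated libraries, beside 3 and 4 of the 10 members. The untreated and treated groups hold the same 4 lines and are not independent. In 7 of the 8 the far value was the highest and belonged to EBC1. Of all genes, 2.2% had such a value of EBC1 in the untreated and 2.49% in the treated libraries. The 7 were HLA-DRB1 at 35.2 CPM untreated and 53.2 CPM treated, HLA-DRB5 at 10.6 and 18.7 CPM, HLA-DQB1 at 233 and 294 CPM, and HLA-DQA1 at 1.21 CPM in the treated library. The other was the within-line log2 ratio of HLA-DPA1, at 1.72 in H820. No share over all genes is given for such ratios. The 4 libraries of a treatment are 4 different lines with 1 library each, so a line and a faulty library cannot be told apart there.

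In edgeR's interaction test, the response of H820 was set apart from that of the other lines for HLA-DRA, by 1.14 on the log2 scale, and for CD74, by 1.11. H820 gave 1 pair of libraries of unequal depth to that test, whose spread comes from the other 3 lines. Of these, H23 had 0 counts of HLA-DRA in both libraries and 3 and 0 counts of CD74. The call of HLA-DRA was lost without the H23 pair (adjusted p = 0.0655) or the H1975 pair (0.243), and that of CD74 without the H1975 pair (0.0579).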

How the results depend on the processing

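The treatment called 0 members under each alternative that was run. The count of all genes called moved from 9 to 15 with library size scaling, 98 with no filter, 3 with a minimum count of 50, 0 with no replicate block, 28 with H23 and H1975 only, and 5 to 20 without single lines. The pairing by line is that of the labels. The fit without the replicate block leaves the differences among lines in the residual spread. It called 0 of all genes, so its lack of member calls is no check on the pairing. Of 1271 recomputed values of single members, 1194 kept their direction and side of the threshold, 35 lost a call, 10 gained one, 5 moved beyond their counting interval and 27 changed sign; apart from HLA-DPA1 in EBC1 against H820 without the treated H820 library, named in the report, no value with a changed sign was called.

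The sign changes were these. For the treatment, HLA-DQA1 was -0.16 with DESeq2 and -0.10 with limma-voom, HLA-DPB1 was 0.01 with no replicate block and -0.31 to 0.04 without single lines, and HLA-DRB1 was -0.09 with H23 and H1975 only. For EBC1 against H820, HLA-DPA1 was 0.01 with a minimum count of 50, 0.11 with DESeq2, 0.26 with thinned libraries and -0.47 to 1.22 without single libraries, where HLA-DPB1 was -0.75 to 0.23. For H820 against H1975, HLA-DMA was 0.02 with limma-voom, 0.01 with thinned libraries and -0.51 to 0.23 without single libraries, where HLA-DRA was -0.85 to 0.30, HLA-DPA1 -1.68 to 0.01 and HLA-DPB1 -0.80 to 0.18. In the response of H820, HLA-DRB1 was 0.01 with no filter and -0.22 to 0.36 without single lines, and CIITA was -0.14 with thinned libraries.

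Counts of members moved by over 1.5 times in H820 against H1975, from 5 to 3 with thinned libraries, and in the response of H820, from 2 to between 0 and 3 without single lines, where all genes called went from 347 to 2088. Smaller moves without single libraries were 5 to 8 members for EBC1 against H1975 (7 as reported), 6 to 8 for EBC1 against H820 (8) and 8 to 10 for H23 against H1975 (10); EBC1 against H1975 was 6 with DESeq2 and 8 with protein-coding genes only. CIITA in EBC1 against H1975 gained its call with a minimum count of 50, protein-coding genes only and thinned libraries. For HLA-DPA1 in the response of H820 the adjusted p was 0.0328 with DESeq2's size factors, 0.0252 with no filter and 0.0195 without EBC1. All genes called in the response of H23 were 8 with no filter, 3 with a minimum count of 50, 2 with protein-coding genes only and 6 to 22 without single lines. In that of EBC1 they were 6 with library size scaling, 16 with no filter, 0 with protein-coding genes only and 3 to 619 without single lines, the 619 without H820. In that of H1975 they were 12 with library size scaling, 2 with a minimum count of 50, 0 with protein-coding genes only, 2 with thinned libraries and 0 to 17 without single lines. The causes were not tested. Scaling by library size moved the median log2 ratio of all genes in H820 from 0.14 to -0.10, and there the log2 ratios of HLA-DRA, CD74 and HLA-DPA1 were 1.09, 1.05 and 1.51 (1.32, 1.28 and 1.72 as reported). Within-line ratios could not be read in H23, where no member reached 50 counts at 20310707 and 15563010 counts in total; the shallow untreated libraries of EBC1 and H820 limit the ratios of low members there.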
